A study of Mus musculus with 2 samples.

Results

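The clustered histone genes are the 67 genes, of 31053 in the deposited tables, whose symbols begin with Hist1h, Hist2h, Hist3h or Hist4h. They were chosen by symbol alone, and 61 of them reached a mean of at least 1 CPM (the count of a gene in UMIs scaled to a library total of 1e+06) over the libraries, where a UMI, or unique molecular identifier, marks 1 captured RNA molecule. The cells were LSK cells, the Lineage-, Sca1+ c-Kit+ fraction of mouse bone marrow that is rich in blood stem cells and multipotent progenitors, profiled by droplet single-cell RNA sequencing with the 10x 3′ chemistry. The control library came from C57BL/6J mice of 6 to 8 weeks labelled as control, with no treatment stated. The irradiated library came from C57BL/6J mice of the same stated age, taken on day 15 after 5.0 Gy of total body irradiation. Each group was 1 library, and the number of mice pooled in it was not given in the sources used here, so no replicate error exists and no test was made. Intervals below are exact 95% Clopper-Pearson intervals and cover counting error only.

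Clustered histone genes encode the linker histone H1 and the core histones H2A, H2B, H3 and H4, which package newly copied DNA. Most of their mRNAs are made during S phase and end not in a poly(A) tail but in a short hairpin, the stem-loop, which the protein SLBP binds for 3′ processing and translation and without which the mRNA is unstable. Replacement histones, by contrast, are encoded by genes outside these clusters whose mRNAs are polyadenylated throughout the cycle. A 3′ library primes on poly(A), so its histone counts are those molecules that were captured in spite of this, and levels of different members are not levels per gene copy.

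The members lay in 4 loci on GRCm38. Hist1 held 54 members on chromosome 13, between 21715763 and 23934851, Hist2 held 10 on chromosome 3, Hist3 held 2 on chromosome 11 and Hist4 held 1 on chromosome 6. In the GENCODE M21 annotation 52 members had at least 30 bases after the stop codon, and 46 of them carried a 16-base stem-loop within 150 bases of it, against 4 of 20753 genes that are no members (0.0193%). The most frequent form, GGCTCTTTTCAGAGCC, occurred in 26 members of types H1, H2A, H2B and H3, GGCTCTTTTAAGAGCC in 6 members of H1, H2B and H3, and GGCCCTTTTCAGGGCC in 7 members, all H4. A further form, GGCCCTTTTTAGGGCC, occurred in 2 H4 members, among them Hist1h4i. The sites below show these forms in members that the results turn on, read 5′ to 3′ along the mRNA with the stem-loop in capitals.
Hist1h2ap (H2A, chr13:21833026-21833049, minus strand): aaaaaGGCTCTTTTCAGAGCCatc
Hist1h2ae (H2A, chr13:23570663-23570688, minus strand): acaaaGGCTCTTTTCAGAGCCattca
Hist1h1c (H1, chr13:23739507-23739532, plus strand): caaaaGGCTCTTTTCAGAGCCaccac
Hist3h2ba (H2B, chr11:58949344-58949369, plus strand): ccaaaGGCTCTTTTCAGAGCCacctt
Hist3h2a (H2A, chr11:58955167-58955192, plus strand): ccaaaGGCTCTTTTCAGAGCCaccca
Hist1h3c (H3, chr13:23745042-23745067, minus strand): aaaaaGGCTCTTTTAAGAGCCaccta
Hist1h4d (H4, chr13:23581945-23581970, plus strand): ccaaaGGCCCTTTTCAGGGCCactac
Hist1h4i (H4, chr13:22040961-22040986, minus strand): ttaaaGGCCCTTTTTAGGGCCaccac

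Some annotated transcripts ran on past the hairpin. Among the 61 listed members 14 had a poly(A) signal (AATAAA or ATTAAA) within 50 bases of the annotated end, among them Hist1h2ae, Hist1h1c, Hist3h2a and Hist3h2ba, and 47 did not. The annotated Hist1h2bc transcript had 2 exons, no stem-loop in the window and no poly(A) signal near its end. Many members are near copies: 36 listed members were at least 98% identical in coding sequence to another member, and Hist1h2ap had the same coding sequence as Hist1h2ao (chromosome 13, 604 against 1.05 CPM in control). How reads were divided between such copies is not given in the sources used here, so the values of single members of these groups are uncertain and the totals by type are less so.

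The control library held 7686 barcodes and 139274656 UMIs, the irradiated library 5596 barcodes and 165119247 UMIs. The filters kept 7188 control cells, with a median depth of 16083.5 UMIs, and 5112 irradiated cells, with 29615, and 11 of the kept barcodes occurred in both libraries. Kit, which encodes c-Kit, stood at 132 CPM in control and 73.5 in irradiated cells, and Ly6a, which encodes Sca1, at 156 and 218. The lineage genes Cd3e and Ly6g lay between 0.0123 and 0.239 CPM. Over all 11510 genes at a mean of at least 1 CPM the median log2 ratio of irradiated over control was -0.12, so a ratio of 0 lies slightly above the middle of all genes.

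As a group, clustered histone mRNAs were higher in the irradiated library. Their UMIs numbered 315833 in control and 551989 in irradiated cells, or 2287 and 3392 CPM, a 1.48-fold difference (log2 0.57, 0.56 to 0.57). By total, the difference was widest for H2A, which went from 1171 to 1971 CPM (log2 0.75, 0.74 to 0.76), and next for H3, from 176 to 254 CPM (0.53, 0.51 to 0.55). H4 went from 202 to 278 CPM (0.46, 0.44 to 0.48), H1 from 463 to 571 CPM (0.30, 0.29 to 0.32) and H2B from 276 to 318 CPM (0.20, 0.19 to 0.22). Medians over the listed members gave another order, with H4 at 0.58, H3 at 0.52, H2A at 0.51, H2B at 0.35 and H1 at 0.08. H2A made up 51.2% of clustered histone UMIs in control and 58.1% in irradiated cells, and H1 20.2% and 16.8%. A few genes carried much of the total: Hist1h2ap, Hist1h2ae and Hist1h1b held 48.8% of it in control and 56.8% in irradiated cells, and without these 3 the log2 ratio was 0.32.

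Of the 61 listed members 41 were at least 25% higher in the irradiated library, 2 were at least 20% lower (the same ratio taken the other way) and 18 lay between. Over all genes past the same minimum 16.8% were that much higher and 34.9% that much lower. These limits are the ones meant below where members are counted as higher or lower by that much. The members' median log2 ratio was 0.49. Differences of 2-fold were rare: 2 members were higher, Hist1h4m and Hist1h4n, and 1 was lower, Hist3h2ba, beside 2.66% higher and 8.84% lower of all genes.

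**Figure D1:**
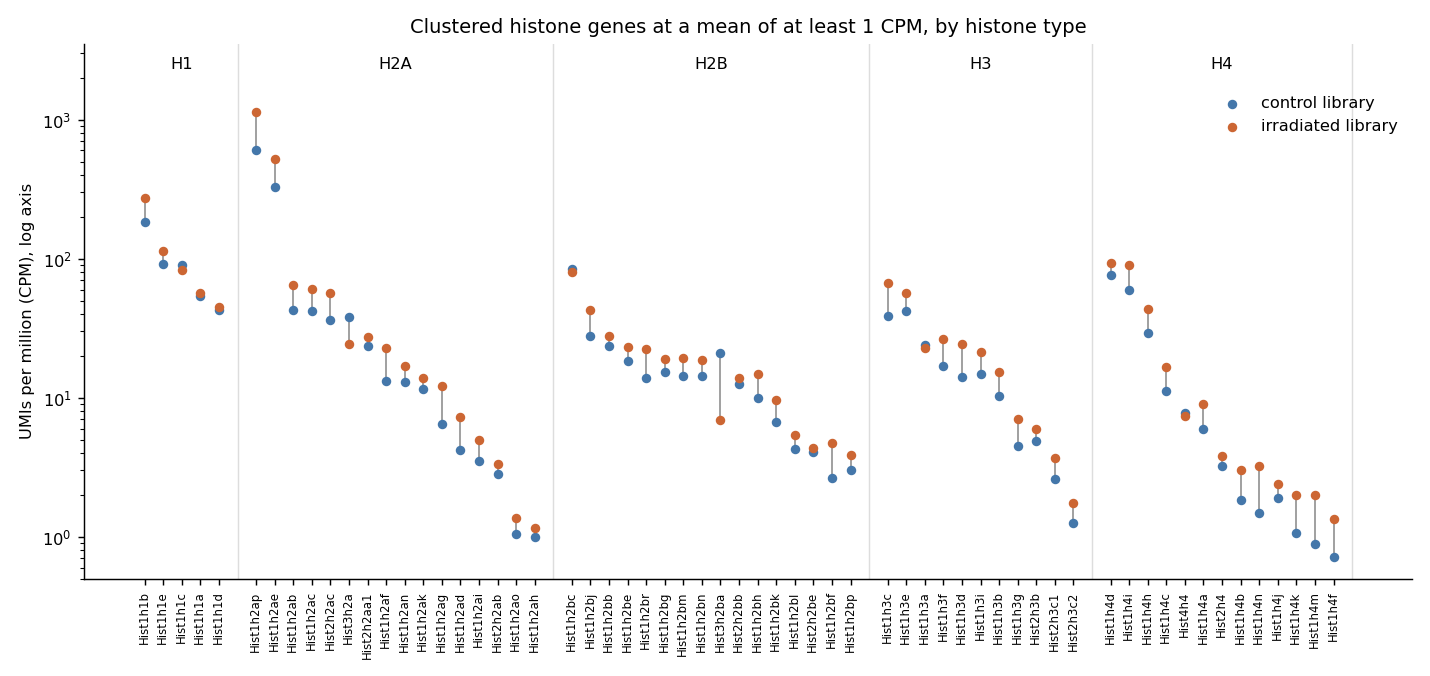
CPM (log axis) of the 61 listed members in the control and irradiated libraries, 1 pair of points per gene, ordered within each histone type by mean level. Most pairs have the irradiated point above; the widest gap with the control point above is Hist3h2ba (20.9 and 6.92 CPM).

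Linker histones bind where DNA enters and leaves the nucleosome. Hist1h1b (H1.5) went from 185 to 272 CPM (log2 0.56, 0.54 to 0.58) and was the only H1 member at least 25% higher. Hist1h1e (H1.4) went from 92.3 to 114 CPM (0.31, 0.28 to 0.34). Hist1h1c (H1.2) stood at 89.4 and 83.6 CPM (-0.10, -0.13 to -0.06) and lay marginally above control when each cell was thinned to 5000 UMIs (0.0048). Hist1h1a (H1.1) stood at 54.0 and 56.3 CPM (0.06, 0.02 to 0.10), and Hist1h1d, the fifth listed H1 gene, at 42.5 and 44.8 CPM. The remaining H1 member, the testis histone gene Hist1h1t, lay under 0.1 CPM in both libraries.

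Among 16 listed H2A members 11 were at least 25% higher and 1 at least 20% lower. Hist1h2ap, the most counted histone gene in both libraries, went from 604 to 1135 CPM (log2 0.91, 0.90 to 0.92), and Hist1h2ae from 328 to 519 CPM (0.66, 0.65 to 0.68). Hist1h2ab went from 42.9 to 64.7 CPM (0.59) and Hist1h2ac from 41.9 to 60.2 CPM (0.52). The exception was Hist3h2a, at 38.2 CPM in control and 24.3 in irradiated cells (-0.65, -0.71 to -0.59), although its UMIs per cell, not divided by the library total, were slightly higher (0.078). The other 11 listed H2A members were each higher in the irradiated library, from Hist2h2ac (36.0 and 56.4 CPM) and Hist1h2af (13.3 and 22.7 CPM) down to Hist1h2ah (0.992 and 1.16 CPM).

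H2B showed both directions. Of 16 listed members 10 were at least 25% higher and 1 at least 20% lower. Hist1h2bc had the highest H2B level, 84.5 CPM in control and 80.8 in irradiated cells (log2 -0.07, -0.10 to -0.03), and its sign turned when each cell had equal weight (0.08). Hist1h2bj went from 28.0 to 43.0 CPM (0.62), Hist1h2be from 18.4 to 23.3 CPM (0.34) and Hist1h2bb from 23.5 to 27.7 CPM (0.24). Hist3h2ba had the lowest ratio of all listed members, from 20.9 to 6.92 CPM (-1.59, -1.69 to -1.49), on 2879 and 1127 UMIs, and it was also lower in UMIs per cell (-0.86). Hist3h2a and Hist3h2ba are neighbours on chromosome 11, and as a locus Hist3 went from 59.0 to 31.2 CPM (-0.92), against 0.60 for Hist1, 0.41 for Hist2 and -0.07 (-0.19 to 0.05) for Hist4.

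Of 11 listed H3 members 9 were at least 25% higher and none was 20% lower. Hist1h3c went from 38.8 to 67.0 CPM (log2 0.79, 0.74 to 0.83), Hist1h3e from 42.3 to 57.1 CPM (0.43) and Hist1h3f from 17.0 to 26.4 CPM (0.63). Hist1h3a was the exception, at 24.03 and 22.8 CPM (-0.08, -0.14 to -0.01), with its sign turned when each cell had equal weight (0.23). Of 13 listed H4 members 10 were at least 25% higher and none 20% lower. Hist1h4d went from 76.9 to 93.0 CPM (0.27), Hist1h4i from 59.5 to 90.04 CPM (0.60), Hist1h4h from 29.3 to 43.8 CPM (0.58) and Hist1h4c from 11.1 to 16.6 CPM (0.58). The highest ratios of all members belonged to H4 genes of low level: Hist1h4m at 0.891 and 2.01 CPM (1.17, 0.87 to 1.48), Hist1h4n at 1.48 and 3.26 CPM (1.13, 0.90 to 1.37) and Hist1h4k at 1.06 and 2.01 CPM (0.93, 0.64 to 1.22). Hist1h4m and Hist1h4n share their coding sequence.

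Since these genes are known for their S phase mRNAs, the cells were divided by cell cycle phase, called from S and G2/M gene lists that hold no clustered histone gene, after thinning each cell to 5000 UMIs. Control cells were called G1 in 48.6% (47.5 to 49.8), S in 26.9% (25.9 to 28.0) and G2/M in 24.4% (23.4 to 25.4) of 7122. Irradiated cells were called G1 in 20.3% (19.2 to 21.4), S in 30.3% (29.0 to 31.5) and G2/M in 49.5% (48.1 to 50.8) of 5053. The median UMIs of unthinned cells went up with these calls, from 12128.5 in G1 to 26490 in G2/M of control and from 16083 to 36952 of irradiated cells.

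In both libraries the histone total was highest in cells called G2/M. In control it stood at 637 CPM in G1, 1400 in S and 4538 in G2/M cells, 7.13-fold higher in G2/M than in G1 and 2.20-fold higher in S than in G1. In irradiated cells it stood at 1012, 2563 and 4259 CPM, 4.21-fold higher in G2/M than in G1 and 2.53-fold higher in S than in G1. Of 59 members at a mean of at least 1 CPM over G1 and G2/M control cells, 54 were at least 2-fold higher in G2/M, against 5.18% of all genes. In the irradiated library it was 47 of 59, against 4.4% of all genes. In S over G1 cells 32 of 51 control members were at least 2-fold higher, against 4.32% of all genes, and 37 of 56 irradiated members, against 3.98%.

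Cells called S were not uniform in histone level. When cells were grouped by which scores were above 0, the 1012 control cells with the S score alone held 417 CPM of clustered histone UMIs, less than the 637 CPM of cells with neither score. Control cells with both scores held 3915 CPM and those with the G2/M score alone 3728 CPM. In the irradiated library the same 4 groups held 1011 CPM (S alone), 1012 (neither), 4196 (both) and 3608 (G2/M alone). Per cell thinned to 5000 UMIs, the median number of histone UMIs was 2, 1, 16 and 15 in control cells with neither, S alone, both and G2/M alone, and 4, 3, 19 and 14 in irradiated cells. The both-scores group held the highest level of 35 of 61 listed members in control and of 45 in irradiated cells. The same count was not made over all genes, so whether it is particular to the members is not known.

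**Figure D2:**
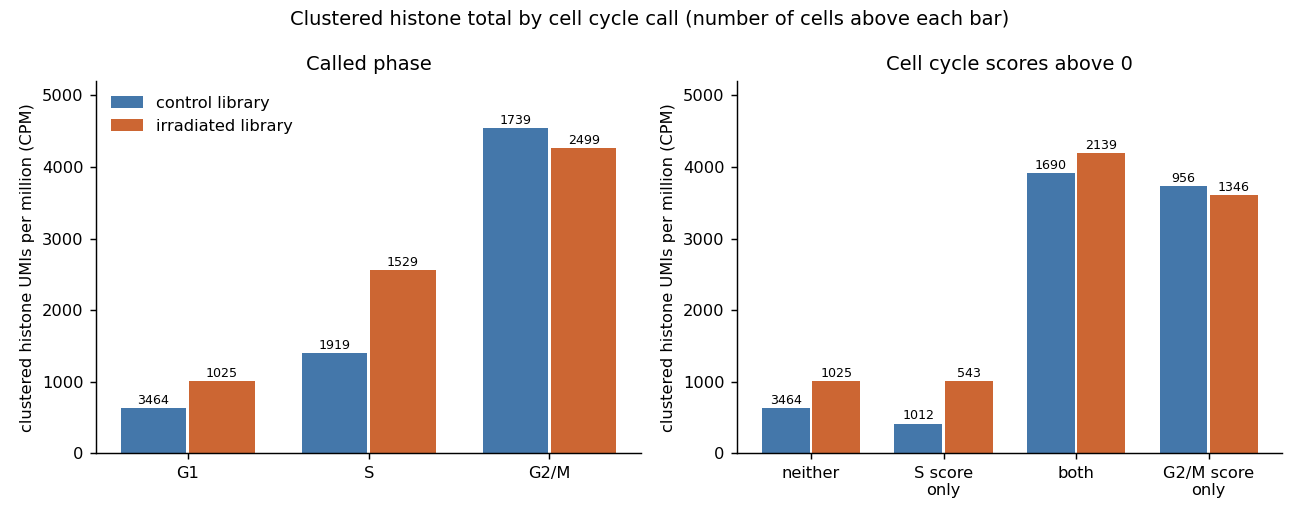
Clustered histone CPM by called phase (left) and by which of the S and G2/M scores lay above 0 (right), in the control and irradiated libraries, with the number of cells above each bar. Cells with the S score alone are low (417 and 1011 CPM), and cells with both scores are the highest or near it (3915 and 4196 CPM).

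Within phases, the libraries differed where the histone level was low and much less where it was high. In G1 cells the total was 1.59-fold higher in the irradiated library (log2 0.67, 0.64 to 0.70), and in S cells 1.83-fold higher (0.87, 0.86 to 0.89). Cells called S differed in make-up between the libraries: the S score alone was above 0 in 1012 of 1919 control cells (52.7%) and in 543 of 1529 irradiated cells (35.5%), and both scores in the rest. Cells called S on the S score alone held 417 and 1011 CPM, and those with both scores 2284 and 3205 CPM. The part of this mix in the S value was not tested. In G2/M cells the total was 0.939-fold (-0.09, -0.10 to -0.08), near the median of all genes in those cells (-0.11). In UMIs per cell the G2/M total was higher than control (0.32). In G1 cells 34 of 45 members past the 1 CPM minimum were at least 25% higher (75.6%, against 15% of all genes) and 2 at least 20% lower (27.3% of all genes). In S cells it was 50 of 58 higher (86.2%, against 14.6%) and 1 lower (31.9%). In G2/M cells 2 of 62 were higher (3.23%, against 15%) and 22 lower (35.5%, against 32.7%), a share near that of all genes. Of the 61 listed members 38 were higher in G1 and S and lower in G2/M cells, against 4.21% of the 11510 genes at a mean of at least 1 CPM. Members higher in all 3 phases numbered 17, against 28.2% of those genes. Hist3h2a and Hist3h2ba were lower in all 3, as were 46.9% of those genes.

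By type, H2A was the only one above control in G2/M cells (log2 0.05, 0.04 to 0.06), while its ratio was 1.06 in G1 and 1.03 in S cells. H1 stood at 0.37 in G1, 0.65 in S and -0.34 in G2/M cells, and H2B at 0.54, 0.75 and -0.39. H3 stood at 0.69, 0.73 and -0.12, and H4 at 0.39, 0.70 and -0.10. In UMIs per cell, each of the 5 type totals was above control in G2/M cells too, from 0.02 for H2B to 0.45 for H2A. Because the share of cells by phase also differed, the irradiated phase values were weighted by the control library's UMIs per phase: the irradiated total was then 2667 CPM against 2289 CPM in control (log2 0.22), H2A stood at 0.35, H2B at 0.06 and H1 at -0.01. With the control phase values weighted by the irradiated library's UMIs per phase instead, the control total was 3163 CPM against 3393 CPM in irradiated cells (log2 0.10), and H2A stood at 0.23, H4 at 0.07 and H3 at 0.05. H2B (-0.14) and H1 (-0.13) then lay below control. The direction of H2B thus differed between these weightings, while H1 lay near or below control in both. The part of the phase mix in the H1 and H2B values was not tested.

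**Figure D3:**
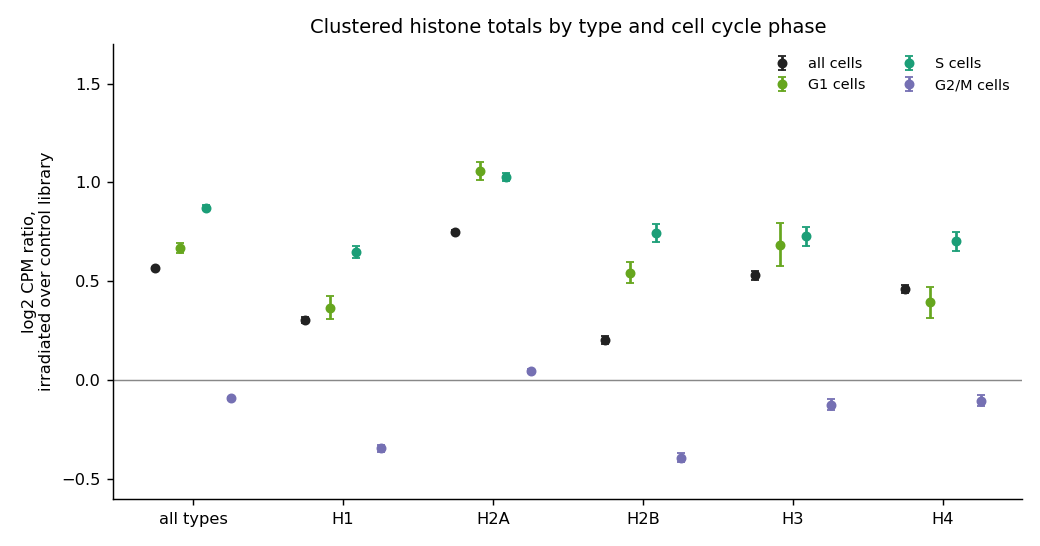
Log2 ratio of irradiated over control CPM for the histone total and each histone type, in all cells and in cells called G1, S or G2/M; bars are 95% counting intervals. G1 and S points lie above 0 for each type, while G2/M points lie below 0 for all types but H2A (0.05). Points are totals, and the median over H2A members in G2/M cells was -0.21.

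Members differed in how strongly their level went with the called phase. The highest S over G1 ratios, at a mean of at least 5 CPM, were those of Hist1h2af, Hist1h3b and Hist1h1b. Hist1h2af went from 0.154 CPM in G1 to 7.60 in S and 30.1 in G2/M control cells, and from 0.683 to 14.5 and 31.0 in irradiated cells. Hist1h3b went from 0.175 to 6.48 and 22.9 CPM in control, and from 0.739 to 11.2 and 20.3 in irradiated cells. The G1 values of these genes rest on few UMIs, 7 in control and 12 in irradiated cells for Hist1h2af and 8 and 13 for Hist1h3b. Hist1h1b went from 6.404 to 133 and 391 CPM in control and from 16.5 to 233 and 340 CPM in irradiated cells, so its G2/M over G1 ratio was 61.1-fold and 20.6-fold. Hist1h2ap went from 62.2 to 389 and 1277 CPM in control, and from 184 to 838 and 1464 in irradiated cells. Each of these 4 genes was lower in G1 than in its own S and G2/M cells in both libraries, with a higher G1 level in the irradiated library.

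At the other end, 7 listed members in each library were lower in S than in G1 cells. Being lower in S is common among all genes, whose median log2 S over G1 ratio was -0.13 in control and -0.12 in irradiated cells. Hist1h2bc stood at 108 CPM in G1, 25.3 in S and 113 in G2/M control cells, and at 156, 54.3 and 80.5 CPM in irradiated cells, where its G1 level was the highest of the 3 phases. Hist1h1c showed the same dip, with 86.7, 36.2 and 136 CPM in control and 101, 55.2 and 94.96 CPM in irradiated cells. Hist3h2ba stood at 20.1, 6.70 and 33.3 CPM in control and at 10.5, 3.16 and 8.19 CPM in irradiated cells. Hist1h2bc, Hist1h1c and Hist3h2ba were the only listed members whose G2/M level lay below G1 in irradiated cells, and in control there was none. A G2/M level below G1 is common among all genes, whose median log2 G2/M over G1 ratio was -0.11 in both libraries. Hist1h2bc encodes a core H2B and Hist1h1c the linker histone H1.2, a subtype known to be made outside S phase as well.

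Members also differed by their annotated 3′ end, as a description of these groups. The 14 listed members with a poly(A) signal near the annotated end had a median log2 G2/M over G1 ratio of 1.77 in control and 1.13 in irradiated cells, and the 47 without had 3.54 and 2.36. The ranges overlapped widely, from 0.65 to 3.92 with the signal and from 0.06 to 7.61 without it in control. Of the 14 with the signal 8 were at least 25% higher and 2 at least 20% lower in the irradiated library over all cells, and of the 47 without it 33 were higher and none lower. Hist1h2bc, whose annotated transcript has neither stem-loop nor signal, had the lowest G2/M over G1 ratio of those without, in both libraries. Annotations of these genes end at different distances from the hairpin, and 15 of the 67 members have under 30 annotated bases after the stop codon, so a missing signal may lie outside the annotation.

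**Figure D4:**
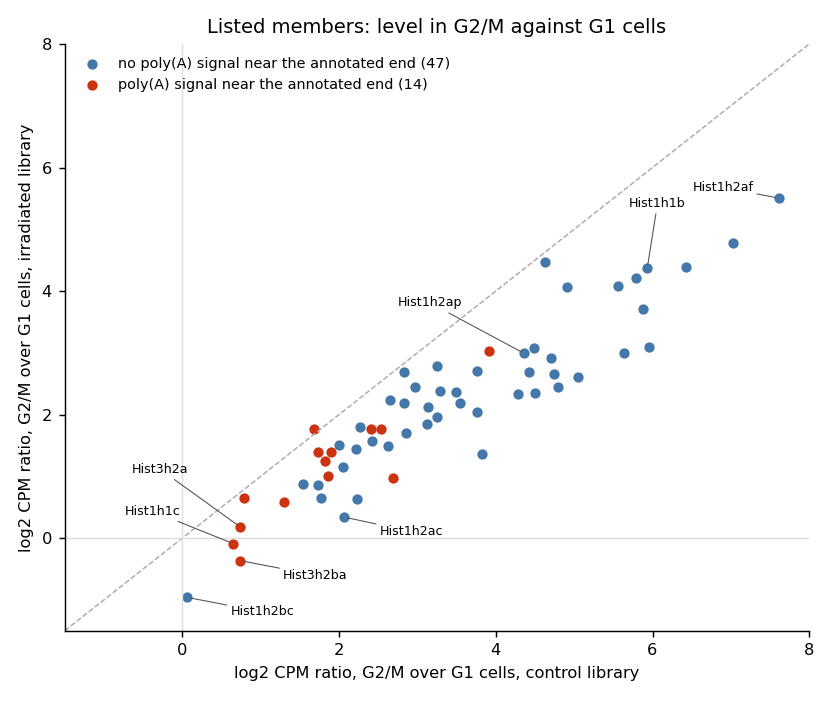
Log2 ratio of the level in G2/M over G1 cells for the 61 listed members, control library on the x axis and irradiated library on the y axis, coloured by a poly(A) signal near the annotated transcript end; the dashed line marks equal ratios. Most members lie under the line, and Hist1h2bc, Hist1h1c and Hist3h2ba lie below 0 in irradiated cells.

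For the pair of Hist3 genes, which were lower in the irradiated library, and for Hist1h1b, with its high S over G1 ratio, the 250 bases before the RefSeq start site (GRCm38.p6) are printed 5′ to 3′ along the gene, with the CCAAT box, the TATA box (TATAAA) and the octamer ATTTGCAT in capitals on either strand.
Hist3h2ba (chr11:58948661-58948910, plus strand): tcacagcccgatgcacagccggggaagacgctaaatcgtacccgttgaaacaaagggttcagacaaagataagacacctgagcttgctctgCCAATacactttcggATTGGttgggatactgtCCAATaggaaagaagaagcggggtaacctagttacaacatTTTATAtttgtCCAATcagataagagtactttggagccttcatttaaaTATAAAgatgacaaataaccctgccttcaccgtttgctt
Hist3h2a (chr11:58954435-58954684, plus strand): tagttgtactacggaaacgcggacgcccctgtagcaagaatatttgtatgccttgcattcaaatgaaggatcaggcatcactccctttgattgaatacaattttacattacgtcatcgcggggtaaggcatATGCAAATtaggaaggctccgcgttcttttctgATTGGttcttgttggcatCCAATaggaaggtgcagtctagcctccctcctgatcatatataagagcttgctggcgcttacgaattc
Hist1h1b (chr13:21780626-21780875, minus strand): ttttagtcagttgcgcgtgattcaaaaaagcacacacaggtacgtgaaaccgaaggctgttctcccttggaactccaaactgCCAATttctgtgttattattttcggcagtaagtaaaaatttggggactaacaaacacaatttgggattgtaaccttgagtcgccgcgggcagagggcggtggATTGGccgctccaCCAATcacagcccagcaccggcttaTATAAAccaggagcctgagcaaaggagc

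Over the 300-base windows of the RefSeq table (250 bases before to 50 after the start, both strands searched), which matched 62 of the 67 members, CCAAT occurred in 53 members, TATAAA in 35 and ATTTGCAT in 13, and no 2 motifs overlapped. Of all 32851 promoters in it, a share of 37.4% held CCAAT, 13.6% TATAAA and 1.74% ATTTGCAT. The motifs went by type: CCAAT was in each of the 50 matched H1, H2A, H2B and H3 promoters but in 3 of 12 of H4, and the octamer was in 7 of 18 H2A and 6 of 16 H2B promoters and in none of H1, H3 or H4.

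Cells were then taken by class, from clusters made without histone or cell cycle genes. The HSC-like class, with haematopoietic stem cell markers such as Hlf and Mecom, held 2491 control and 1051 irradiated cells, the lymphoid-primed-like class (Dntt, Il7r, Notch1) 1557 and 515, the megakaryocyte-primed-like class (Pf4, Itga2b, Gp5) 183 and 557 and the neutrophil-primed-like class (Elane, Mpo, Ctsg) 465 and 2069. A further cluster, cluster 1, led by Wfdc17, Ccl3 and Ccl4, stayed unnamed, with 2238 and 258 cells. The histone total was higher in the irradiated library in each of these 5 classes. It went from 1921 to 2746 CPM in HSC-like cells (log2 0.52, 0.50 to 0.53), from 2279 to 3770 CPM in lymphoid-primed-like cells (0.73, 0.71 to 0.74) and from 2114 to 2987 CPM in cluster 1 (0.50, 0.48 to 0.52). It went from 3504 to 4165 CPM in megakaryocyte-primed-like cells (0.25, 0.22 to 0.28) and from 2722 to 3460 CPM in neutrophil-primed-like cells (0.35, 0.33 to 0.36). The last value rested on the clustering, since with 30 neighbours drawn from all cells it was 0.70. Clusters entered the classes in different shares in the libraries: cluster 5, led by Pdzk1ip1 and Gng11, gave 853 of 2491 control and 137 of 1051 irradiated HSC-like cells, and cluster 4, led by Elane, gave 116 of 465 and 1012 of 2069 neutrophil-primed-like cells. The other neutrophil-primed-like cluster was led by Ccl9, Ctsg and Mcpt8, and the megakaryocyte-primed-like cluster also held the mast cell markers Cpa3, Fcer1a and Ms4a2.

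The share of members that were at least 25% higher exceeded that of all genes in each class. It was 38 of 59 members in HSC-like cells (64.4%, against 11.6% of all genes), 47 of 60 in lymphoid-primed-like cells (78.3%, against 12.7%) and 41 of 60 in cluster 1 (68.3%, against 15.5%). It was 25 of 61 in megakaryocyte-primed-like cells (41.0%, against 11.4%) and 19 of 62 in neutrophil-primed-like cells (30.6%, against 11.2%). Members at least 20% lower numbered 2 in HSC-like, 2 in lymphoid-primed-like, 5 in cluster 1, 6 in megakaryocyte-primed-like and 2 in neutrophil-primed-like cells, beside 33%, 27.4%, 31.4%, 24.9% and 16.8% of all genes. In each of the 5 classes 10 members were at least 25% higher, against 1.93% of the 11510 genes at a mean of at least 1 CPM over all cells: Hist1h2ad, Hist1h2ae, Hist1h2af, Hist1h2ap, Hist1h2br, Hist1h3b, Hist1h3d, Hist1h3f, Hist1h4b and Hist1h4n. Hist3h2a and Hist3h2ba were lower in each of the 5, as were 29.1% of those genes.

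Among these 5 classes Hist1h2ap was highest in megakaryocyte-primed-like cells, at 963 CPM in control and 1374 in irradiated cells (log2 0.51), and lowest in HSC-like cells, at 459 and 848 CPM (0.88). Lymphoid-primed-like cells had its largest ratio of the 5, from 605 to 1265 CPM (1.06, 1.03 to 1.09). Among the same 5 Hist3h2ba was lowest in neutrophil-primed-like cells, at 4.5 and 2.64 CPM (-0.77, -1.16 to -0.36), and had 23.7 CPM in control and 11.6 in irradiated HSC-like cells (-1.04). Hist1h2bc moved in both directions, from 88.5 to 128 CPM in HSC-like cells (0.54, 0.47 to 0.61) and from 136 to 108 CPM in megakaryocyte-primed-like cells (-0.33, -0.48 to -0.18).

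Within each of the 5 classes the histone total was higher in the irradiated library in G1 and in S cells. In G2/M cells its direction differed between classes. In S cells the log2 ratio of the histone total was 0.91 in HSC-like, 0.90 in lymphoid-primed-like, 0.75 in cluster 1, 0.74 in megakaryocyte-primed-like and 0.73 in neutrophil-primed-like cells. In G1 cells it ran from 0.29 (0.22 to 0.37) in lymphoid-primed-like to 0.80 (0.69 to 0.91) in neutrophil-primed-like cells. In G2/M cells it lay between -0.18 (-0.20 to -0.16) in HSC-like and 0.14 (0.12 to 0.15) in neutrophil-primed-like cells. The part that free RNA in droplets has in the G1 values was not tested. The 42 irradiated G1 cells of a small cluster with Cd74, H2-Eb1 and H2-Aa as its leading genes held 464 CPM of clustered histone UMIs, below the 777 to 1233 CPM of irradiated G1 cells in the 5 classes. Other small classes lay within that range or below it in irradiated G1 cells. The values were 898 CPM in T/NK lineage-like (53 cells), 1122 in erythroid-primed-like (60 cells) and 191 in B lineage-like cells (5 cells).

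**Figure D5:**
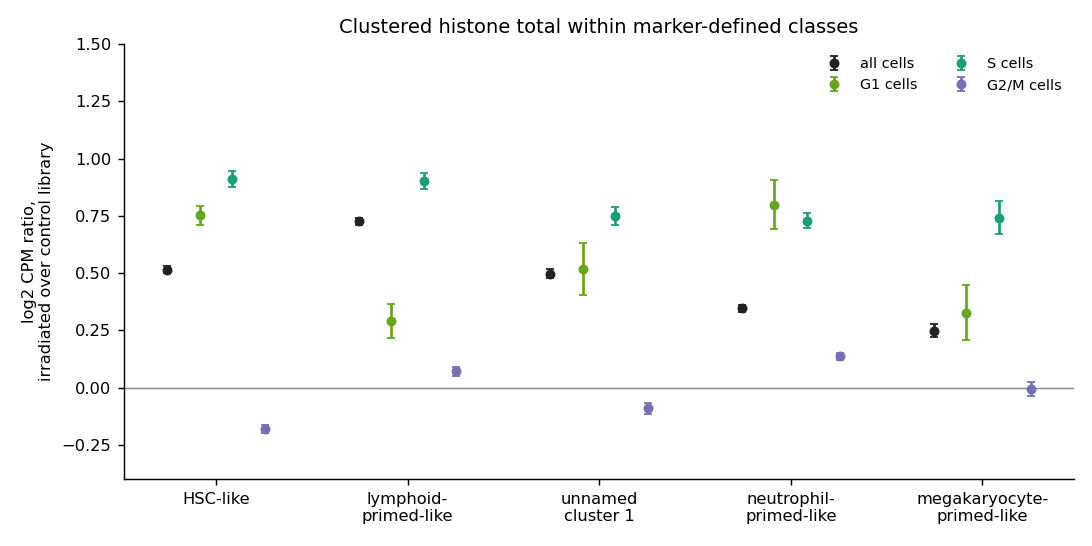
Log2 ratio of irradiated over control CPM for the histone total in 5 classes, in all cells of the class and in its G1, S and G2/M cells; bars are 95% counting intervals. S points lie between 0.73 and 0.91, and G2/M points between -0.18 and 0.14.

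Genes around the clustered histones were described from 3 lists. Each is to be read beside all genes at a mean of at least 1 CPM. Of those genes 16.8% were at least 25% higher and 34.9% at least 20% lower, with a median log2 ratio of -0.12. Of 11 replacement histones 3 were at least 25% higher, 3 at least 20% lower and 5 between, with a median log2 ratio of -0.15, near that of all genes. H2afz, which encodes the variant H2A.Z, went from 1701 to 2248 CPM (0.40, 0.40 to 0.41), and H2afy, which encodes macroH2A1, stood at 2892 and 2060 CPM (-0.49, -0.50 to -0.48). H2afz also rose with the called phase, from 707 CPM in G1 to 1806 in S and 2519 in G2/M control cells. In irradiated cells it stood at 1120, 2187 and 2488 CPM. H2afy showed no such rise, at 2779, 3204 and 2740 CPM in control and 1949, 2261 and 1979 CPM in irradiated cells. The H3.3 genes H3f3a and H3f3b stood at 2267 and 1883 CPM (-0.27) and at 2123 and 1924 CPM (-0.14), and H1f0, the linker histone gene known from non-dividing cells, had the lowest ratio, from 53.1 to 33.3 CPM (-0.68, -0.73 to -0.62).

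Of 11 genes for histone mRNA synthesis and 3′ processing 10 reached 1 CPM, and 1 of them was at least 25% higher, none 20% lower and 9 between (median 0.03). The higher one was Lsm11, a part of the U7 snRNP that cuts histone pre-mRNA, from 11.8 to 15.3 CPM (0.38, 0.29 to 0.47). Slbp stood at 140 and 149 CPM (0.09) and was highest in S cells of both libraries, at 196 and 182 CPM. Cpsf2, a cleavage factor, stood at 75.5 and 75.9 CPM (0.01), Casp8ap2 at 56.5 and 50.9 CPM (-0.15), and Eri1, the exonuclease that trims histone mRNA, at 50.7 and 52.8 CPM (0.06). Npat, the transcription coactivator of the clusters, had the lowest ratio, at 17.0 and 14.6 CPM (-0.22).

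Histone chaperones carry histones to DNA. Of 16 in the list 6 were at least 25% higher, 1 at least 20% lower and 9 between (median 0.17). Over all genes 16.8% were that much higher and 34.9% that much lower. Asf1b, a chaperone of new H3 and H4, had the highest ratio, from 23.5 to 37.5 CPM (0.67, 0.61 to 0.74), and Atrx the lowest, from 231 to 167 CPM (-0.47, -0.49 to -0.45). Anp32e, an H2A.Z chaperone that was also in the G2/M list used for the phase calls, went from 186 to 238 CPM (0.36). Nap1l1, a chaperone of H2A and H2B, went from 493 to 561 CPM (0.19), and the FACT subunits Ssrp1 (234 and 229 CPM, -0.03) and Supt16 (216 and 217 CPM, 0.0063) lay between those limits.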

How the data were processed

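The authors deposited raw counts of UMIs per gene and barcode for each library. Per the labels' protocols the libraries used the single-cell 3′ v2 kit. Per the submitters' processing notes Cell Ranger 2.1.1 and mm10 were used, while the file headers give software version 3.1.0; this was not resolved. Groups came from the stated treatment.

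Barcodes with at least 1000 UMIs, at least 500 genes and at most 10% mitochondrial UMIs were kept. Scrublet marked 2 control and 16 irradiated cells (0.0278% and 0.312%), which were removed; at so low a rate the caller has not worked. UMIs summed over kept cells and divided by the library total gave CPM. A feature was counted as different when its CPM was at least 25% higher in the irradiated library or, the same ratio reversed, 20% lower. With 1 library per group there was no test.

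Phases came from scanpy 1.11.5 on cells with at least 5000 UMIs (66 control and 59 irradiated cells were shallower), with 39 S and 53 G2/M genes. Of the called cells 18.6% and 21.1% lay within 0.05 of a cut between phases. Clusters came from 2000 variable genes without histone, ribosomal, mitochondrial, sex-linked and cell cycle genes or genes correlated with the cycle scores (r over 0.15), 30 components, 15 neighbours from each library and Leiden resolution 1 (leidenalg 0.10.2). A cluster was named when at least 3 of its fixed markers were among its 25 genes of highest fold and no other list had more in the top 10; this naming rule and the leaving out of cycle-correlated genes were set after the data were seen.

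Values in full are given for up to 4 members of each type with the highest mean CPM, the 3 highest and 3 lowest ratios, the 3 highest and 3 lowest S over G1 ratios at a mean of at least 5 CPM, and up to 4 members of each related list with its highest and lowest ratio; other members named as exceptions or neighbours were chosen after their values were seen. The members and lists were chosen with earlier results of these data known. Transcripts came from GENCODE M21, promoters from RefSeq. The scripts were tested on simulated data.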

Additional observations from a re-analysis of the deposited data

Results flagged for a closer look

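For the histone total and for types H1, H2B, H3 and H4 the ratio of irradiated over control pointed one way in G1 and S cells and the other way in G2/M cells; with 1 library per group the difference was not tested, and it is given on the CPM scale. For the histone total the log2 ratio was -0.092 in G2/M cells, against 0.67 in G1 and 0.87 in S cells. That G2/M value lay near the median of all genes in those cells (-0.11), and in UMIs per cell it was 0.32. By class it lay on both sides of 0, at -0.18 in HSC-like and 0.07 in lymphoid-primed-like G2/M cells. H1 stood at -0.34 in G2/M cells against 0.37 and 0.65, H2B at -0.39 against 0.54 and 0.75, H3 at -0.12 against 0.69 and 0.73, and H4 at -0.10 against 0.39 and 0.70.

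Among single members Hist1h2bc stood at -0.49 in G2/M cells, against 0.53 in G1 and 1.10 in S cells. Hist1h2bb stood at -0.54, against 1.26 in G1 and 0.71 in S cells. Hist1h1c stood at -0.52 in G2/M, 0.61 in S and 0.22 in G1 cells, and Hist1h4d at -0.33, 0.48 and 0.09. Hist1h1a stood at -0.62 in G2/M, 0.40 in G1 and 0.24 in S cells. Hist1h3a stood at -0.62 in G2/M and 0.52 in G1 cells but at -0.01 in S cells.

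Barcodes that the filters left out, 498 control and 484 irradiated, also held clustered histone UMIs, at 1390 and 2522 CPM (log2 0.86, 0.78 to 0.94).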

How the results depend on the processing

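No paired analysis was possible because each group holds 1 library, so the groups share only 1 replicate number. Results without a test are called moved when they left their 95% counting interval. All deposited barcodes, cells without the highest Scrublet scores, and leaving out the 10 cells with the most UMIs kept the total and the 5 types inside their intervals. With each cell weighted equally the total was 0.79, H1 0.49, H2A 1.03, H2B 0.38, H3 0.80 and H4 0.62, and with cells thinned to 5000 UMIs 0.79, 0.50, 1.02, 0.35, 0.81 and 0.65. At no more than 5% mitochondrial UMIs they were 0.46, 0.20, 0.62, 0.14, 0.41 and 0.38. In UMIs per cell, which moves the median of all genes from -0.12 to 0.61, they were 1.30, 1.03, 1.48, 0.93, 1.26 and 1.19. Chosen after seeing the data, the total without its 3 highest members was 0.32, and with the control phase mix the total was 0.22, H1 -0.0056, H2A 0.35, H2B 0.060, H3 0.17 and H4 0.17. With control cells weighted to the irradiated phase mix, also chosen after seeing the data, they were 0.10, -0.13, 0.23, -0.14, 0.055 and 0.069, so H1 and H2B turned below control.

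Members at least 25% higher numbered between 28 (of 44 at a mean of at least 5 CPM) and 59 (UMIs per cell, against 70.1% of all genes higher and 7.89% lower), with 31 at no more than 5% mitochondrial UMIs. Members at least 20% lower numbered 1 in UMIs per cell, where Hist3h2a turned to 0.078. Without that scaling, 7 of 162 alternatives for the 27 members described in full changed sign, for Hist1h1a, Hist1h1c, Hist1h2bc and Hist1h3a.

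Within phases, at no more than 5% mitochondrial UMIs G1 was 0.72, S 0.80 and G2/M -0.10. With phases called on unthinned cells S was 0.84 and G2/M -0.12, without the highest Scrublet scores G2/M was -0.15, and without cells within 0.05 of a cut S was 0.90 and G2/M -0.12. In UMIs per cell G1 was 1.05, S 1.43 and G2/M 0.32. Within classes, 30 neighbours from all cells gave 0.61 for HSC-like, 0.63 for lymphoid-primed-like, 0.20 for megakaryocyte-primed-like and 0.70 for neutrophil-primed-like cells. The HSC-like clusters of that clustering held 1550 and 514 control but 70 and 56 irradiated cells, against 1051 irradiated cells in the main class. An unnamed cluster there held 88 control and 1414 irradiated cells. So the 0.61 describes a different set of cells, largely divided by library. Resolution 0.5 gave 0.64 for lymphoid-primed-like and 0.32 for neutrophil-primed-like cells. At no more than 5% mitochondrial UMIs HSC-like cells stood at 0.47, lymphoid-primed-like at 0.67 and megakaryocyte-primed-like at 0.21. In UMIs per cell HSC-like cells stood at 1.07, lymphoid-primed-like at 1.30, megakaryocyte-primed-like at 0.38, neutrophil-primed-like at 0.62 and cluster 1 at 1.14. Alternatives that left a class unnamed or with under 100 cells in a library gave no value, and cluster 1, which has no name, was not matched to clusters of other clusterings. The cause of these moves was not tested.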

Other observations

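Small classes, with under 100 cells in 1 library, are given as values. B lineage-like cells, led by Ebf1, Vpreb1 and Cd79a, had the highest histone total of all classes, 6542 CPM over 114 control cells and 5665 CPM over 27 irradiated ones, and 81.6% and 65.4% of those with a phase were called G2/M. Their H1 stood at 1598 and 1067 CPM and their H2A at 3318 and 3235 CPM. T/NK lineage-like cells, whose cluster was also led by interferon genes such as Ifit3 and Rsad2, held 1139 CPM (73 control cells) and 2279 CPM (101 irradiated cells). Erythroid-primed-like cells (Car1, Klf1) held 3929 CPM (40 control cells) and 3503 CPM (463 irradiated cells), and 27 control and 71 irradiated cells of the cluster with Cd74 and H2-Eb1 in the lead held 2926 and 1136 CPM.

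The 6 members below a mean of 1 CPM were Hist1h3h, just under the limit at 0.710 and 1.08 CPM, and Hist1h1t, Hist2h2aa2, Hist1h2aa, Hist1h2bq and Hist1h2ba, each under 0.1 CPM. Just inside was Hist1h4f, at 0.717 and 1.35 CPM. Hist1h2ba, a testis H2B gene, had 0 UMIs in both libraries. Hist1h2bq and Hist1h2br have the same coding sequence and stood at 0 and 0.00614 CPM and at 13.9 and 22.6 CPM.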
